A study of Drosophila melanogaster with 4 samples.

Results

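The data described here are the micro exon bins of indirect flight muscle (IFM) mRNA: stretches of at most 30 nt of annotated exon that lie inside a gene and are long enough to change a protein by only a few residues. IFM is the fibrillar muscle that powers flight in Drosophila. mRNA-Seq was made from IFM of 1 d adult flies of 2 genotypes raised at 27 °C, with 2 libraries each: w1118, the control strain, and bru1M3. The bru1M3 flies carry a CRISPR insertion of a splice-trap cassette upstream of the last exons of bru1, which truncates every Bru1 isoform in its C-terminal RNA recognition motif. The paper detected almost no bru1 mRNA or Bru1 protein in bru1M3 and predicts that the allele acts as a null. The allele is carried by every cell of the fly from fertilisation on, and a dissected muscle also holds motor axon terminals, tracheae, hemocytes and fat. The comparison asks which micro exon bins are used more or less in bru1M3.

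Exon bins came from the exon table that the authors made with DEXSeq, which cuts each gene into non-overlapping pieces at every annotated exon edge. Members were the bins with a mean count of at least 20 that are at most 30 nt wide and are neither the 5'-most nor the 3'-most listed bin of a gene with at least 3 listed bins. This gave 1039 micro exon bins in 781 genes, of 46187 listed bins in 9639 genes, and they made up 3.97% of the 26175 internal bins that pass the same count minimum. Most genes, 609, had 1 member, 172 had more, and the most in any gene was 6. A further 278 internal bins of this width had a mean count under 20. The member just above that minimum was the 12 nt bin 10 of Ars2, with a mean count of 20.03 and a difference in use of -0.97, and the bin just below it was the 24 nt bin 10 of bark, with 19.98 and 1.00. At the width limit there were 32 bins of 30 nt inside it and 19 bins of 31 nt outside it.

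Micro exons are known best from neurons. The splicing machinery has little room to recognise both ends of so short an exon, and dedicated factors, such as the SRRM4 protein in mammals, help it do so. Because most of them keep the reading frame, they add or remove a handful of residues at a protein surface without truncating it. Bru1 belongs to the CELF family, whose members bind GU-rich RNA in introns and mRNAs and can favour inclusion or skipping of an exon. In flies it is known as the splicing factor that sets fibrillar isoforms of sarcomere proteins.

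The unit of every exon value is the fitted use of a bin in each genotype, a variance-stabilised score with 1 value per genotype and no error, so no test of a bin could be made and a difference says nothing of the spread between libraries. Over all internal bins the median score was 4.05 near a mean count of 20, 7.14 near 80, 11.5 near 320 and 16.6 near 1280. A doubling of the count was therefore worth 1.33 points at the low end and 2.59 at the high end. Differences are given as bru1M3 minus w1118. A bin is called higher or lower when its difference lies in the outer 5% at that end over all 26175 internal bins, above 1.53 or below -1.51. These limits describe the size of a difference only. In its standard procedure DEXSeq counts a read in every bin the read overlaps, so a bin of a few nt largely shares its reads with its neighbours. The columns of exon values per library carry names that match no sample label and were not used, so no bin value can be given with a library left out.

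Micro exon bins were of very different kinds. Only 90, in 83 genes, stood alone, with no further exon sequence of their gene on either side. Of these, 81 do not touch an annotated transcript start and are micro exons in the usual sense, and 9 do and are first exons of a transcript. For 2 of the 90, in zip and Archease, counted among the 81, that place rests on the listed bins alone, because the gene identifier was not found in the annotation used. Another 452 were the start of a longer exon, as an alternative 3' splice site makes, 200 were the end of one, as an alternative 5' splice site makes, and 297 lay inside a longer exon. Of all members, 577 lay wholly in coding sequence, 448 lay outside it and 14 straddled its edge. The 448 include 6 bins in 4 genes that matched no annotated exon, so their coding status is unknown. Another 102 touched an annotated transcript start and 35 an annotated transcript end. An exon under another gene identifier overlapped 36, and for the bins of zip and Archease that identifier carries the same gene name.

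The widths of the bins followed the reading frame. Of the 1039, 651 (62.7%) had a width divisible by 3, against 36.6% of the 25136 longer internal bins. The share was 85.1% among members in coding sequence and 34.2% among those outside it, while it was 38.2% among longer coding bins and 32.5% among longer bins outside coding sequence. By place it was 78.3% for the start of a longer exon, 73.3% for bins that stand alone, 54.0% for the end and 41.4% for the inside of a longer exon. The most common width was 3 nt, with 216 bins, and 150 of those were the first 3 nt of a longer exon, the pattern left by a pair of acceptor sites in tandem. Only 7 bins of 3 nt stood alone. Bins that stand alone were the widest, with a median of 21 nt against 7 nt for the start of a longer exon.

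**Figure D1:**
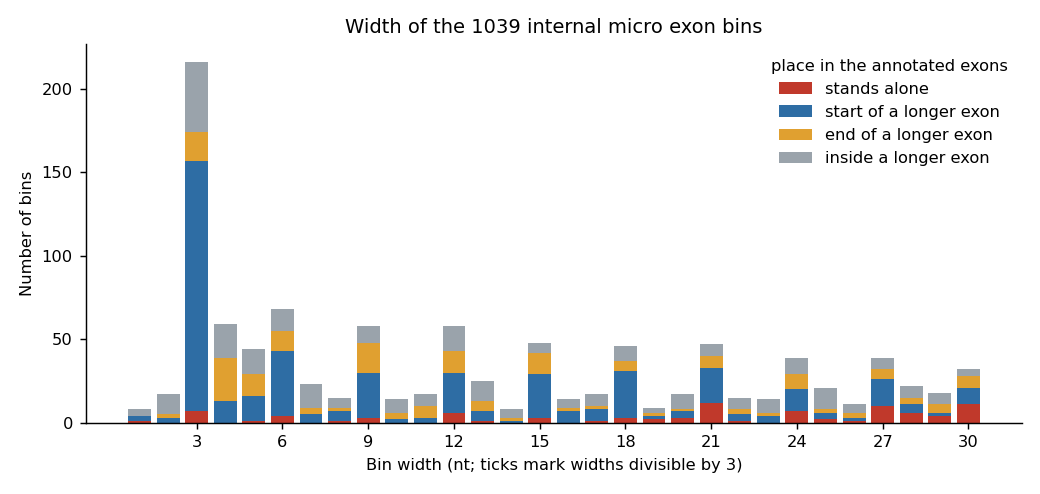
Number of micro exon bins (y axis) at each width from 1 to 30 nt (x axis), stacked by place in the annotated exons. The bar at 3 nt holds 216 bins, 150 of them the start of a longer exon, and a peak stands at each multiple of 3.

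More micro exon bins than longer bins lay past the limits, in both directions. In bru1M3, 79 of the 1039 members (7.60%) were called higher and 76 (7.31%) were called lower, where 5.00% of all internal bins were called higher and 5.00% lower. Bins of 31 to 90 nt were called higher in 6.99% and lower in 5.80%. For bins of 91 to 300 nt the shares were 4.94% and 4.53%, and for wider bins 4.34% and 5.12%. Among members, the share past either limit was 13.3% at 1 to 3 nt, 13.1% at 4 to 9 nt and 12.9% at 10 to 15 nt. It was 21.3% at 16 to 21 nt and 16.1% at 22 to 30 nt, so it did not rise steadily as width fell. Members had a lower median mean count than longer bins, 60.9 against 129. Between mean counts of 20 and 50, 7.87% of members were called higher and 8.99% lower, against 6.51% and 7.20% of longer bins. Between 50 and 200 the values were 7.28% and 5.93% against 4.603% and 4.76%, and between 200 and 1000 they were 7.14% and 6.55% against 3.36% and 3.13%. From 1000 upwards they were 9.09% and 5.45% against 6.57% and 5.29%, so the share lower was about the same there. The median difference was 0.08 for the members and 0.06 over all internal bins, so the members as a whole were centred close to all internal bins.

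The shares past a limit were alike for bins whose width is and is not divisible by 3. Of the 651 bins divisible by 3, 7.53% were called higher and 7.22% lower, and of the 388 others 7.73% and 7.47%. The median differences were 0.04 and 0.13. Within coding sequence, the bins divisible by 3 were called higher in 8.15% and lower in 7.33%, and the 86 not divisible by 3 in 5.81% each way. The 150 bins of 3 nt at the start of a longer exon, of which 114 lie in coding sequence, were called higher in 6% and lower in 6%, close to the 5.00% of all internal bins.

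The shares past a limit differed by the place of a bin. Among the 90 bins that stand alone, 16 (17.8%) were called higher in bru1M3 and 6 (6.67%) lower, against 4.70% and 3.91% of the 18051 longer bins that stand alone, and 6.44% and 5.74% of the 1412 of these that are 31 to 90 nt wide. Without sowah, which has 5 such bins, the count was 13 of 85 (15.3%) higher. Of the 81 that are not first exons, 14 (17.3%) were called higher and 5 (6.17%) lower. By mean count, 6 of the 43 bins between 20 and 50 were called higher and 5 lower, with a median difference of -0.08, and 7 of the 24 between 50 and 200 higher and 1 lower, with the 3 calls of sowah among the 7. The shares also differed by whether an annotated transcript leaves the bin out. Of the 56 that at least 1 spanning transcript leaves out, 9 of them first exons, 12 (21.4%) were called higher and 5 (8.93%) lower, and of the 1504 longer bins of this kind 13.4% and 15.9%. Without the first exons, 10 of 47 micro exons were called higher and 4 lower. Of the 32 that every spanning transcript includes, 4 were called higher, 3 of them in sowah and 1 in SERCA, and none was called lower. Of all 22 bins that stand alone and lie past a limit, 18 were coding and 18 had a width divisible by 3. Of all 90 that stand alone, 66 were coding and 66 had a width divisible by 3. The bin of zip is not among the 18 coding ones, because its gene identifier was not found in the annotation.

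**Figure D2:**
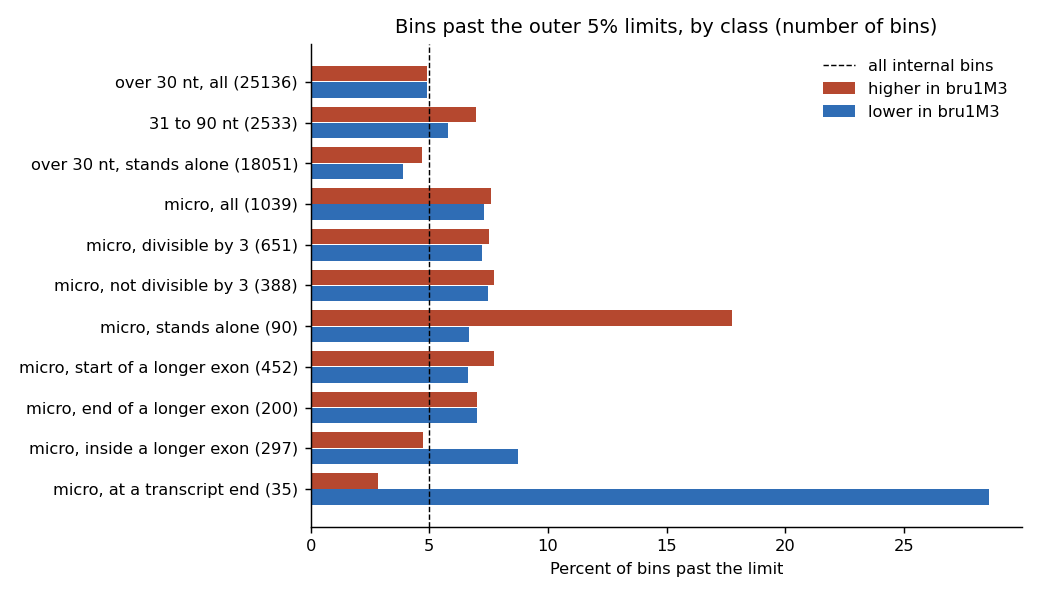
Percent of bins called higher (red) and lower (blue) in bru1M3, by class of bin, with the number of bins in parentheses and the 5.00% of all internal bins as a dashed line. Micro exon bins that stand alone reach 17.8% higher and 6.67% lower, and those at an annotated transcript end 28.6% lower.

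At transcript ends the direction was the opposite. Of the 35 members that touch an annotated transcript end, 10 (28.6%) were called lower and 1 higher, with a median difference of -0.95. Longer bins at transcript ends also leaned this way, with 10.3% lower and 3.76% higher. Members at transcript ends that lie inside a longer exon include the 20 nt bin 11 of eIF4A, the 13 nt bin 28 of Svil and the 10 nt bin 2 of wupA. Of the 102 members at transcript starts, 11 (10.8%) were called higher and 4 (3.92%) lower, against 11.2% and 12.6% of the 1179 longer bins there.

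Of the exons that stand alone, the group in sowah, a gene for an ankyrin repeat protein, differed most. sowah lies on 3L, and 5 of its 14 listed bins were stand-alone micro exons, all in coding sequence and all in every transcript that spans them. Use of the 3 nt bin 11 (3L:12545403-12545405) was 0.05 in w1118 and 6.62 in bru1M3, a difference of 6.57. The bins on either side of it, bin 10 of 3 nt and bin 12 of 12 nt, went from 3.48 to 6.60 and from 4.25 to 6.82. All 3 of these tiny exons were used more in bru1M3, while of the bins next to them the 90 nt bin 9 differed by 1.26 and the 141 nt bin 13 by -0.01. The 6 nt bin 8 differed by -0.06. The 27 nt bin 2 differed by -0.33. At gene level sowah had 163 and 185 normalised counts in w1118 and 462 and 376 in bru1M3, which do not overlap. The log2 fold change was 1.26 ± 0.22 (SE, n = 2 per genotype, adjusted p = 0.0083, limma).

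Several other exons that stand alone were used more in bru1M3 without their neighbours. In metro, which encodes a scaffold protein of the MAGUK family, the 30 nt coding bin 6 went from 4.73 to 7.72, a difference of 2.98, between neighbours that differed by 0.08 and 0.11. In ScsbetaA, the gene for a succinyl-CoA synthetase subunit of the citric acid cycle, the 3 nt coding bin 8 went from 4.71 to 7.48 between neighbours at 0.21 and -0.29. In Prps, for phosphoribosyl pyrophosphate synthetase, the 24 nt coding bin 6 went from 2.69 to 5.54, with -0.97 and 0.37 beside it. Marf, for the fly mitofusin that fuses mitochondria, had a 12 nt coding bin 6 at 4.51 and 6.23. CG9674 had a 3 nt coding bin 16 at 3.72 and 5.43. In shot, for a spectraplakin that links actin and microtubules, the 12 nt bin 19 went from 4.32 to 5.87, beside -0.30 and -0.05. Each of these exons is left out by at least 1 annotated transcript, and in each neither neighbour lay past the limit. Mean counts were near the minimum for the bins of CG9674 (25.2), Prps (35.8), shot (37.4) and Marf (38.96). They were 68.5 for that of ScsbetaA and 136 for that of metro. The bins beside the ScsbetaA bin had mean counts of 14977 and 19924, and those beside the Prps bin 44.98 and 35.65. In all, 8 of the 16 stand-alone exons called higher (50%) had no neighbour past the upper limit, 4 (25%) had 1 and 4 (25%) had both. Of the 848 longer stand-alone bins called higher, 59.9% had none, 29.7% had 1 and 10.4% had both.

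Elsewhere the exon differed together with a longer stretch. In SERCA, for the calcium pump of the sarcoplasmic reticulum, the 18 nt coding bin 13 (2R:23932574-23932591) went from 21.2 to 23.5, a difference of 2.29, and its neighbours differed by 2.17 and 2.24. In dlg1, for the Discs large scaffold protein, the 24 nt bin 23 differed by 1.76 between 2.07 and 2.15. The 19 nt bin 16 of sm, for an hnRNP L-like protein, is a noncoding first exon and went from 1.67 to 5.13, with neighbours at 3.65 and 1.86. A few ran against both neighbours. In bt, for the giant sarcomere kinase projectin, the 22 nt bin 5 differed by 1.71 while the bins beside it differed by -3.31 and -6.85.

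**Figure D3:**
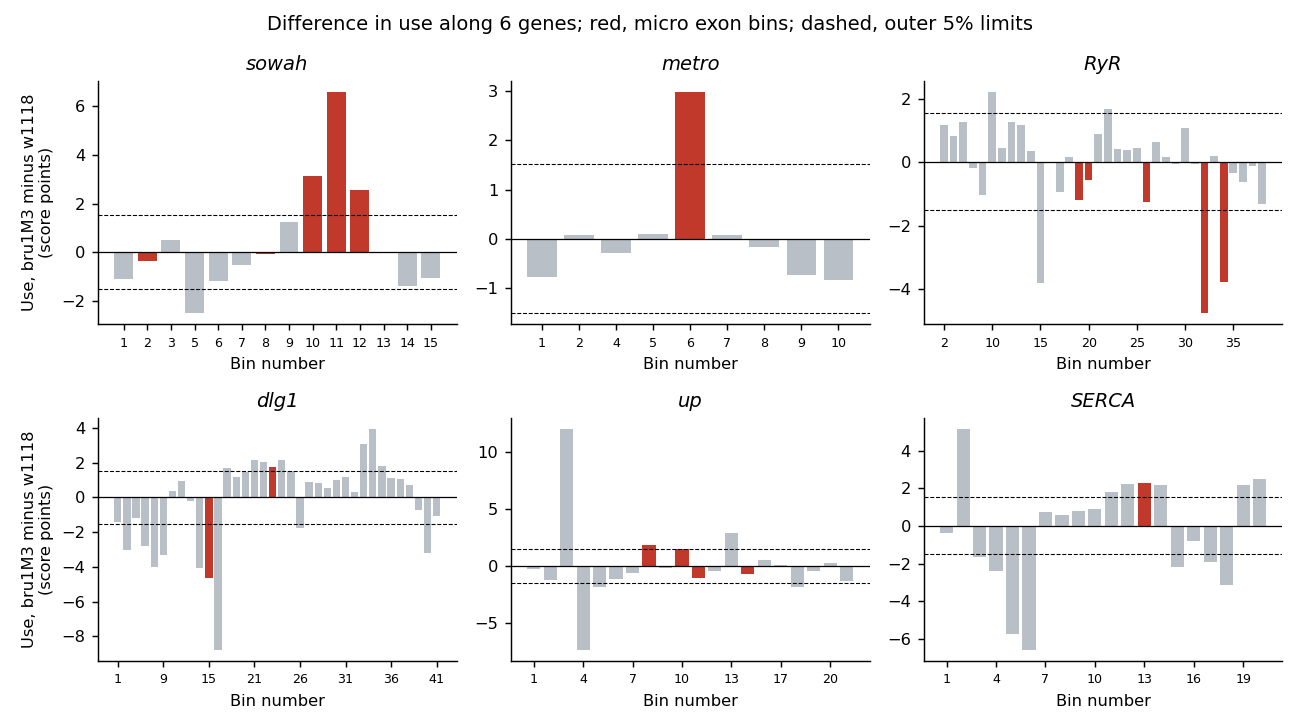
Difference in use (y axis, score points, bru1M3 minus w1118) of each listed bin along 6 genes (x axis, bin number), with micro exon bins in red, other bins in grey and the outer 5% limits dashed. The red bars stand by themselves in metro and in RyR bins 32 and 34, and have the sign of their neighbours in SERCA and dlg1.

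The 6 stand-alone exons called lower in bru1M3 were led by a calcium channel. In RyR, for the ryanodine receptor that releases calcium from the sarcoplasmic reticulum, the 21 nt coding bin 32 (2R:8883472-8883492) went from 6.77 to 2.02, a difference of -4.75, with neighbours at -0.06 and 0.19. Of the 10 annotated transcripts that span it, 1 includes it. The same gene had a 24 nt coding bin 34 at the start of a longer exon that went from 6.92 to 3.14, also in 1 of 10 transcripts and with neighbours within the limits. The other members of RyR, bins 19, 20 and 26, differed by -1.18, -0.56 and -1.25. RyR itself had 7474 and 8694 normalised counts in w1118 and 5958 and 11694 in bru1M3, which overlap. The mean counts of bins 32 and 34 were 23.2 and 31.6, near the minimum. In Vha100-1, for a subunit of the vacuolar proton pump, the 6 nt coding bin 14 went from 5.76 to 3.60, between 0.78 and 1.78. In PMCA, for the calcium pump of the plasma membrane, the 12 nt bin 9 went from 6.16 to 4.45, between -0.26 and -1.74. Differences in Mpcp1, a mitochondrial phosphate carrier, zip, the nonmuscle myosin heavy chain, and CG5174 were -2.20, -1.63 and -1.59. The neighbours of the zip bin differed by -0.41 and -1.78. In PMCA and zip, 1 neighbour thus lay past the lower limit, and the other 4 of the 6 exons had none there. Mean counts were also near the minimum for the bins of Vha100-1 (26.5), PMCA (36.2), Mpcp1 (20.8) and CG5174 (34.9), and 122 for that of zip.

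Among all 1039 members, the 10 with the largest differences above 0 were mostly slices of longer exons. First was the 5 nt bin 17 of wupA (X:18114606-18114610), the gene for troponin I, which inhibits contraction at rest. It lies outside coding sequence at the end of a longer exon and went from 8.93 to 16.4, a difference of 7.48, with neighbours at 1.03 and -0.90. In sals, whose product lengthens thin filaments, the 3 nt noncoding bin 10 went from 4.07 to 11.02, and the 1241 nt bin that follows it differed by 7.63. In CG44085 the 9 nt bin 15 went from 5.63 to 10.8, beside 4.55 in the next bin. In FER, for a Fer-type tyrosine kinase, the 3 nt bin 10 went from 0.05 to 4.82, beside 4.74. The 18 nt bin 15 of CG18304 differed by 4.25. CG42319 bin 3, of 23 nt, and CG5001 bin 8, of 12 nt, differed by 3.02 and 2.99. The remaining members of this group were sm bin 16 and sowah bins 10 and 11.

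Use close to zero was seen in w1118 alone. Members with use under 1 were FER bin 10, sowah bin 11 and the 4 nt bin 4 of NetA, for a netrin guidance cue, all 3 of them in w1118, and none in bru1M3. The reads on nuclear genes were 8326712 and 12395680 in the w1118 libraries and 19999967 and 21962285 in the bru1M3 libraries, and the part of this difference in depth was not tested. NetA bin 4 went from 0.08 to 2.23.

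The member furthest below 0 was in Bacc, whose 3 nt noncoding bin 3 at the end of a longer exon (2L:2752838-2752840) went from 10.2 to 1.97, a difference of -8.24, between neighbours at 0.01 and 1.52. Bacc had 1906 and 2004 normalised counts in w1118 and 2474 and 1763 in bru1M3, so its gene level overlapped. In Cpr62Bb, for a cuticle protein, the 22 nt bin 6 differed by -5.28, and in eIF4A, for the helicase of translation initiation, bin 11 went from 12.9 to 7.82. The 24 nt bin 15 of dlg1 differed by -4.65, next to a 1276 nt bin at -8.76. The 6 nt bin 17 of cora, for a septate junction protein, differed by -4.22, and its neighbours by -3.35 and -4.79. The 3 nt bin 8 of CLIP-190, for a microtubule plus-end protein, differed by -3.75 between -3.57 and -3.86. In Lmpt, for the muscle LIM protein Limpet, the 4 nt bin 26 differed by -3.52 between -3.72 and -4.53. The remaining members of the group were RyR bins 32 and 34 and the 11 nt bin 19 of bru1, which lies downstream of the cassette and went from 7.88 to 3.84.

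**Figure D4:**
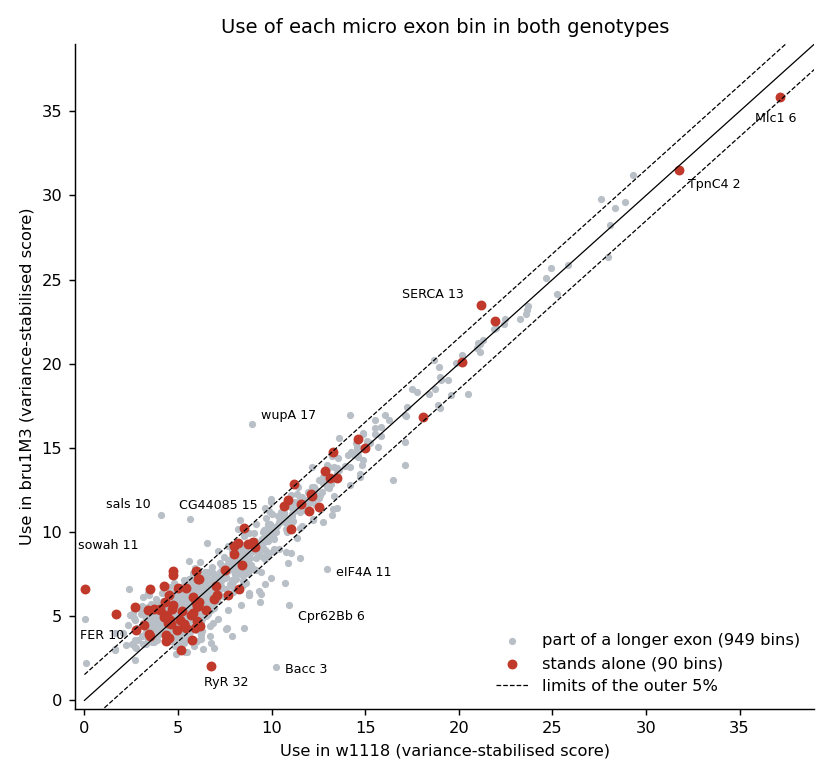
Use of each of the 1039 micro exon bins in w1118 (x axis) and bru1M3 (y axis), both as variance-stabilised scores, with bins that stand alone in red, equal use as a solid line and the outer 5% limits dashed. Most bins lie between the limits, wupA bin 17 and sowah bin 11 stand far above them, and Bacc bin 3 and RyR bin 32 far below.

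For the called members as a whole, 76 of 155 (49.0%) had no neighbouring bin past the same limit, 49 had 1 and 30 had both, against 54.2%, 33.6% and 12.2% of called longer bins. Inside longer exons, 13 of 40 called members had both neighbours past it. The 155 lay in 137 genes, 14 of them with at least 2. Called members were higher only in sowah and CG1572, lower only in Mbs, RyR, CLIP-190 and Svil, and went both ways in 8 genes, among them wupA, dlg1, PMCA and Doa. In Mbs, for the targeting subunit of myosin phosphatase, bins 4, 5 and 14 differed by -2.51, -3.13 and -2.71.

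Sarcomere protein genes, of a list used by the study, held 47 members in 25 genes. Of the 47, 8 (17.02%) were called higher and 6 (12.8%) lower, and of the 681 longer bins of such genes 17.03% and 17.6%. The median difference was -0.56 for the 47, of which 28 were below 0, and 0.11 for the longer bins, of which 366 were above 0. In wupA, the 6 nt coding bin 13 went from 27.6 to 29.8 and the 10 nt bins 2 and 14 differed by -1.62 and -2.25. In up, for troponin T, which ties troponin to tropomyosin, the 3 nt bin 8 at the end of a longer exon went from 29.3 to 31.2 at a mean count of 54392. The exons of up that stand alone stayed within the limits, the 24 nt bin 10 just so at 1.49 and the 3 nt bin 11 at -1.04. Both are coding and both are left out by some of the 18 transcripts that span them. In Mf, for the thick filament protein myofilin, the 6 nt bin 15 differed by -3.41, and its neighbour bin 14 of 15 nt by -1.47, just inside the limit. Mlp60A bin 3, of 25 nt, and Tm1 bin 6, of 4 nt, both outside coding sequence, differed by 2.04 and 2.27. The 4 members of Mhc, for the muscle myosin heavy chain, lay between -0.63 and 0.48.

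Of the 10 exons that stand alone with the highest counts, 6 differed by less than 1 point and SERCA, up, Mlc1 and sls by more. The 28 nt bin 6 of Mlc1, for an essential light chain of myosin, had a mean count of 203507 and went from 37.2 to 35.9, and the 21 nt bin 2 of TpnC4, the calcium sensor of fibrillar muscle, had 53687 and went from 31.8 to 31.5. Both are in every spanning transcript. The 21 nt bin 5 of sls, for the titin-like Sallimus and kettin, went from 18.1 to 16.8, and 1 of 11 spanning transcripts includes it. Scp1 bin 8, CG14207 bin 2, RpL35A bin 4, Frq2 bin 7 and Acyp2 bin 2 differed by 0.61, 0.90, -0.08, -0.02 and -0.01. SERCA bin 13 was the only one of these 10 past a limit, and up bin 10, at 1.49, lay just inside it.

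Members in genes tied to microtubules were called lower more often than higher. Of 89 members in 61 microtubule-associated genes of the study's list, 6 (6.74%) were called higher and 13 (14.6%) lower, against 7.94% and 6.92% of the 1474 longer bins of genes on that list and 5.00% each way of all internal bins. Those lower include 2 in each of RyR and CLIP-190, the 24 nt bin 16 of msps and the 23 nt bin 5 of shi, for dynamin, at -2.26 and -2.30. Of 18 members in fibrillar core genes, 1 (5.56%) was called higher and 2 (11.1%) lower, against 11.2% and 10.5% of the 401 longer bins of that list. Of 13 members in 6 genes of RNA-binding splicing regulators, none was called higher and only bru1 bin 19 (7.69%) lower. Among all members, 7.60% were called higher and 7.31% lower. The stand-alone exons of Rbfox1 (bin 13, 21 nt), Rbp9 (bin 13, 15 nt) and mub (bin 2, 29 nt) differed by -0.91, 0.80 and -0.63.

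The gene levels of those regulators were tested on their own. Of the 13 genes listed, 3 were higher and 3 lower in bru1M3 (adjusted p under 0.05, limma). bru1 had 1807 and 1386 normalised counts in w1118 and 10618 and 9976 in bru1M3, a log2 fold change of 2.7, while its bin 19, downstream of the cassette, was used less. The paper likewise found more bru1 mRNA with exons upstream of the cassette, but little splicing past it and hardly any Bru1 protein. The gene count is therefore no measure of Bru1 protein. how, the fly quaking, rose from 1247 and 930 to 2994 and 2804, and mub rose from 2401 and 2294 to 5247 and 4200. Srrm234, the fly relative of the mammalian micro exon factor, fell from 788 and 794 to 461 and 480 (log2 fold change -0.75, adjusted p = 0.022). ps, for the KH-domain protein Pasilla, fell from 6125 and 4703 to 2094 and 2661, and mbl fell from 415 and 608 to 164 and 295. The call of Srrm234 was lost without w1118 replicate 1 or 2 or bru1M3 replicate 1 (adjusted p = 0.077, 0.076 and 0.069), and that of mbl without w1118 replicate 2 or bru1M3 replicate 1 (0.098 and 0.15).

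Genes that hold micro exon bins were more often changed in level than the average gene. Gene values were tested with limma over 9228 genes, of which 22.2% were called, 12.8% higher and 9.33% lower in bru1M3. Of the 776 tested genes with a micro exon bin, 181 (23.3%) were higher and 79 (10.2%) lower. These genes were also more abundant, with a median of 741 normalised counts in w1118 against 156 for all genes tested, and the part of abundance in these shares was not tested. Of the 83 genes with an exon that stands alone, 24 were higher and 9 lower. With quantile normalization the counts were 152 higher and 145 lower, so the split between higher and lower depends on the scaling. The number lower also fell from 79 to 41 without w1118 replicate 1, to 51 without w1118 replicate 2 and to 39 without bru1M3 replicate 1, and for stand-alone exons from 9 to 4, 5 and 5.

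Micro exon bins were called most in genes that rose. Members in genes higher in bru1M3 were called higher in 12.2% and lower in 14.6%, members in genes lower in bru1M3 in 4.85% and 2.91%, and those in genes not called in 6.42% and 5.40%. Longer bins were not split by gene level, so whether these shares are particular to micro exon bins was not tested. metro rose from 490 and 615 to 2723 and 2740 (log2 fold change 2.31 ± 0.18, adjusted p = 0.00028, limma). cora rose from 2175 and 1770 to 18333 and 18127, and CLIP-190 from 979 and 1057 to 3699 and 3830. sm, FER, sals, dlg1 and CG44085 rose by 1.498, 1.03, 1.54, 1.06 and 2.98 on the log2 scale, and in each the groups did not overlap. Levels of ScsbetaA, Marf, PMCA, Vha100-1, shot, Prps, SERCA, wupA and up did not pass the test, with log2 fold changes between -0.32 and 0.49. Without bru1M3 replicate 1, SERCA (adjusted p = 0.048) and shot (0.023) passed, and without bru1M3 replicate 2, ScsbetaA did (0.031). With quantile normalization, up (0.012) and Marf (0.018) passed. bt, Mf, Scp1 and sls rose by 1.20, 1.16, 1.59 and 2.21. The call of bt was lost without w1118 replicate 1 (adjusted p = 0.20) or 2 (0.11), that of Scp1 without w1118 replicate 1 (0.064) and that of Mf without w1118 replicate 2 (0.067).

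**Figure D5:**
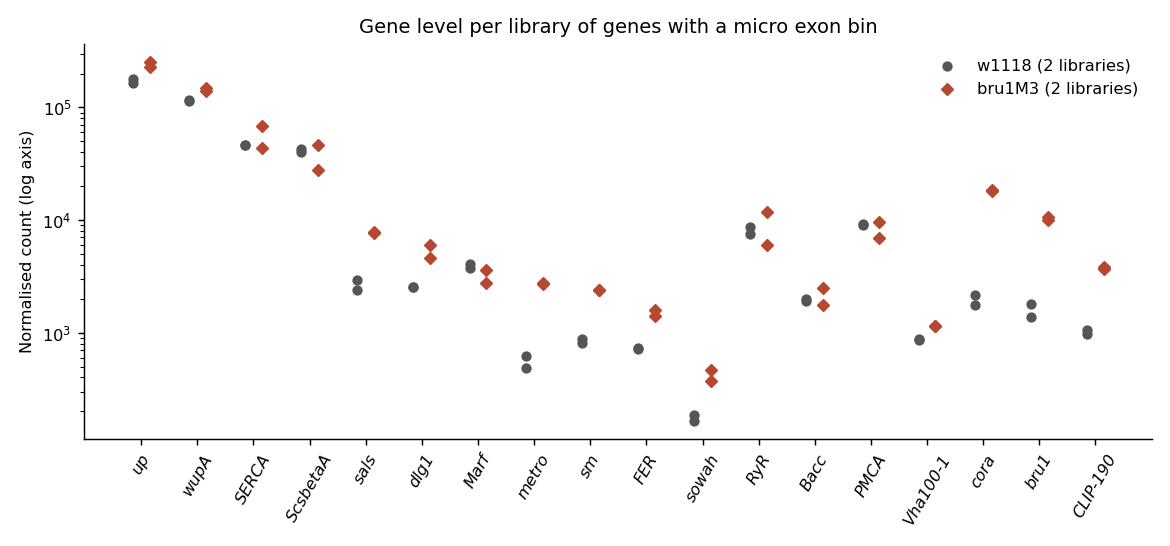
Normalised counts (y axis, log axis) of 18 genes with a micro exon bin named in the text, with 2 w1118 libraries as grey circles and 2 bru1M3 libraries as red diamonds, each point 1 library. The groups are far apart in cora, bru1, CLIP-190 and metro and overlap in RyR, Bacc, PMCA, SERCA and ScsbetaA.

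Several markers of other cells differed by genotype. Of 9 neuron markers, 5 were called lower in bru1M3 and none higher (adjusted p under 0.05, limma), where 9.33% of all genes tested were called lower. The summed level of the 9 markers was 8262 and 12759 in w1118 and 3166 and 4819 in bru1M3, with nSyb at 1103 and 1827 against 407 and 503. In bulk tissue, fewer cells of a type and less RNA per cell cannot be told apart. Members in these marker genes numbered 5, in Syt1 and cpx, with differences between 0.18 and 1.17 and none past a limit. The 3 hemocyte markers were all lower, with sums of 1215 and 995 against 459 and 607. The 3 fat body markers went both ways, with apolpp lower, Lsp2 higher and Fbp1 not called, and summed to 1600 and 1556 in w1118 and 1561 and 1090 in bru1M3. Photoreceptor markers summed to 4304 and 745 in w1118 and to 490 and 794 in bru1M3, so that w1118 replicate 1 stood apart with ninaE at 1256 against 79.97, 2.05 and 97.7. The fibrillar markers Act88F, fln, TpnC4 and Strn-Mlck were abundant in all 4 libraries. Of the tubular markers, Act79B and TpnC41C were lower in bru1M3 and Act57B rose from 1023 and 4286 to 53651 and 24634. The part of other cells in the use of any micro exon bin was not tested.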

How the data were processed

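mRNA-Seq of IFM was read from 2 w1118 and 2 bru1M3 libraries. Each library is a separate sample in the labels, so p-values measure the spread between these samples, which may be partly technical. The members and gene lists used here were chosen with earlier results of these data known.

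The authors mapped reads with STAR 2.7.3a to BDGP6.22, counted them with featureCounts (Subread 2.0.0) and used DESeq2 1.32.0 and DEXSeq, whose version is not given in the sources used here. Gene values are a signal that the authors deposited as counts divided by 1 size factor per library. For exon bins the authors deposited a mean count as a signal, a fitted use score per genotype, and their own fold changes and p-values, which were not used. Also not used were 4 columns of exon values per library, whose names match no label. Rows repeated under a second symbol were used once.

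Positions were compared with the Ensembl BDGP6.54 annotation, in which both edges of 98.5% of the members are annotated exon edges. No genome sequence was used, so no sequence is shown and the planned motif search was not run. Named bins are the 10 with the largest differences in each direction, every member of a sarcomere protein gene, the 10 stand-alone bins with the highest counts and those at the limits of the selection. Stand-alone bins past a limit, bins of genes with several called members, and NetA, msps, shi and Mbs were named after their values were seen.

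Gene values of at least 10 in at least 2 libraries were tested with limma 3.58.1 in R 4.3.3 on log2(value + 1), with a trend, without a block and with Benjamini-Hochberg adjustment over 9228 genes at 0.05. Fold changes are on that scale. Dividing by the smallest step gave whole reads (within 0.01) for 100% of values, 30384053 to 34105524 per library, which edgeR 4.0.16 and DESeq2 1.42.0 tested as alternatives. limma called 2046 genes, edgeR 2112 and DESeq2 2229. The scripts were tested on simulated data.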

Additional observations from a re-analysis of the deposited data

How the results depend on the processing

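For the shares of bins past a limit, mean count minimums of 10 or 50, widths up to 15 or 27 nt, at least 5 listed bins, limits set within groups of like mean count and the difference divided by the mean use moved no share by over 1.5 times, except the share of stand-alone bins called lower, 4.26% at a minimum of 50 and 11.1% at widths up to 15 nt. With the outer 1% as the limit, the shares higher and lower were 1.35% and 1.73% for all members, 1.54% and 1.69% for widths divisible by 3, 1.03% and 1.80% for the other widths, and 5.56% and 1.11% for bins that stand alone. With the outer 10% they were 13.6% and 13.8%, 13.98% and 13.7%, 12.9% and 13.9%, and 27.8% and 13.3%. Taking only bins that stand alone, 17.8% were higher, 19.7% of those divisible by 3 and 12.5% of the others, of which 4.17% were lower.

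Of the genes with a micro exon bin, 119 were higher and 14 lower at an adjusted p threshold of 0.01, and 145 were lower with quantile normalization. Of those with a stand-alone bin, 2 and 18 were lower. Leaving out each library in turn gave 149 to 162 higher and 39 to 95 lower, and for stand-alone bins 18 to 25 higher and 4 to 12 lower. The replicate number did not pair the libraries (correlation of deviations 0.027), and with it as a block the counts were 178 higher and 78 lower, and 22 and 8 for stand-alone bins. The block ended the call of bt (adjusted p = 0.0501) and no other call among the genes followed here. Reads on nuclear genes were fewest in the w1118 libraries, and their part in the bin scores was not tested. The motif search was not run.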
